A study of Mus musculus with 8 samples.

Results

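The genes described here encode G-protein-coupled receptors for monoamines, acetylcholine, glutamate, GABA and endocannabinoids. A list of 33 was taken by gene symbol. No measured value entered the rule, but the list was chosen with earlier results of these data known. Of the 33, 30 had a probe set assigned to that gene alone, out of 19938 genes with such a probe set on the arrays. Each of the 30 had 1 such probe set. The 30 comprise 3 dopamine, 10 serotonin, 2 adrenergic, 5 muscarinic, 6 metabotropic glutamate and 2 GABA-B receptor genes, the cannabinoid receptor gene *Cnr1* and the histamine receptor gene *Hrh3*. *Adra1a*, *Adra2a* and *Adrb1* were not analysed here.

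RNA of 4 groups was hybridized to Affymetrix Mouse Gene ST arrays, with 2 arrays per group. Both E12.5 groups came from BAT-gal embryos of strain B6D2F1 (mixed), which carry a *lacZ* reporter driven by a minimal promoter with LEF1/TCF binding sites. The mdDA domain (midbrain dopaminergic, positive for b-GAL and PITX3) and a lateral domain at the alar-basal boundary (negative for both) were cut by laser from fixed, immunostained sections, each from a pool of 5 embryos. The other groups were primary mdDA neurons sorted for GFP from Pitx3GFP/+ embryos of strain C57BL/6 x 129/Ola (mixed) at E13.5 and at E14.5, in which GFP replaces 1 *Pitx3* allele and marks *Pitx3*-expressing cells. The number of embryos behind the sorted samples is not given in the sources used here, and the sex of all samples was not determined. The labels call the 2 arrays of a group technical replicates, so every p-value measures the spread between arrays of the same sample and not between embryos.

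G-protein-coupled receptors transmit through heterotrimeric G proteins. Gs-coupled receptors (DRD5, HTR4, HTR6, HTR7) raise cyclic AMP, Gi/o-coupled receptors (DRD3, DRD4, the HTR1 group, CHRM2, CHRM4, GRM2, GRM3, GRM4, GRM7, GRM8, GABA-B, CNR1, HRH3) lower it and open potassium channels, and Gq-coupled receptors (the HTR2 group, ADRA1B, CHRM1, CHRM3, CHRM5, GRM5) activate phospholipase C beta. In the adult midbrain, dopaminergic neurons are a main site of *Chrm5* expression, carry D2-type autoreceptors, and are inhibited through GABA-B receptors.

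The labels were compared with marker genes. Of 7 mdDA neuron markers, 6 (*Th*, *Ddc*, *Slc6a3*, *Slc18a2*, *Nr4a2* and *En1*) were higher in the mdDA than the lateral domain, and *Pitx3* differed by 0.67 on the log2 scale without passing the test (adjusted p = 0.228 from limma). The paper counts *Pitx3* among the transcripts enriched in the mdDA domain at a false discovery rate below 10%, so the outcome for this gene differed here. All 5 lateral midbrain markers and all 4 measured markers of dividing progenitors were lower in the mdDA domain. Embryonic blood transcripts were more abundant in the E12.5 tissue than in the sorted neurons, with mean *Hbb-y* levels of 10.37 and 10.68 in the domains and 3.86 and 3.83 in the sorted groups. Markers of serotonergic neurons (*Tph2* and *Slc6a4*) lay between 2.95 and 3.81 in all groups. The deposited values were not on one scale across the series, since the array medians were 4.39 on the sorted arrays and from 4.57 to 4.60 on the dissected arrays. The correlation between the 2 arrays of a group across probe sets was between 0.966 and 0.983.

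To describe which receptor transcripts were present, each value was set against a reference on the same array, the 95th percentile of 1245 probe sets of olfactory, vomeronasal and taste receptor genes, which are taken as not used in this tissue. This reference, called chemosensory here, is a level and not a detection test. It lay between 4.25 and 4.42 on the dissected arrays and between 3.98 and 4.10 on the sorted arrays. Of the 30 receptor genes, 20 (66.7%) lay above it on both arrays of at least 1 group, compared with 63.5% of all 19938 genes. The number above it was 10 in the lateral domain, 15 in the mdDA domain, 16 in the E13.5 neurons and 17 in the E14.5 neurons. The corresponding shares were 33.3, 50, 53.3 and 56.7%, against 56.7, 56.2, 60.2 and 58.8% of all genes. In all 4 groups 9 genes were above the reference (*Drd4*, *Chrm1*, *Chrm3*, *Grm2*, *Grm3*, *Gabbr1*, *Gabbr2*, *Cnr1* and *Hrh3*), and 10 were above it in none.

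**Figure D1:**
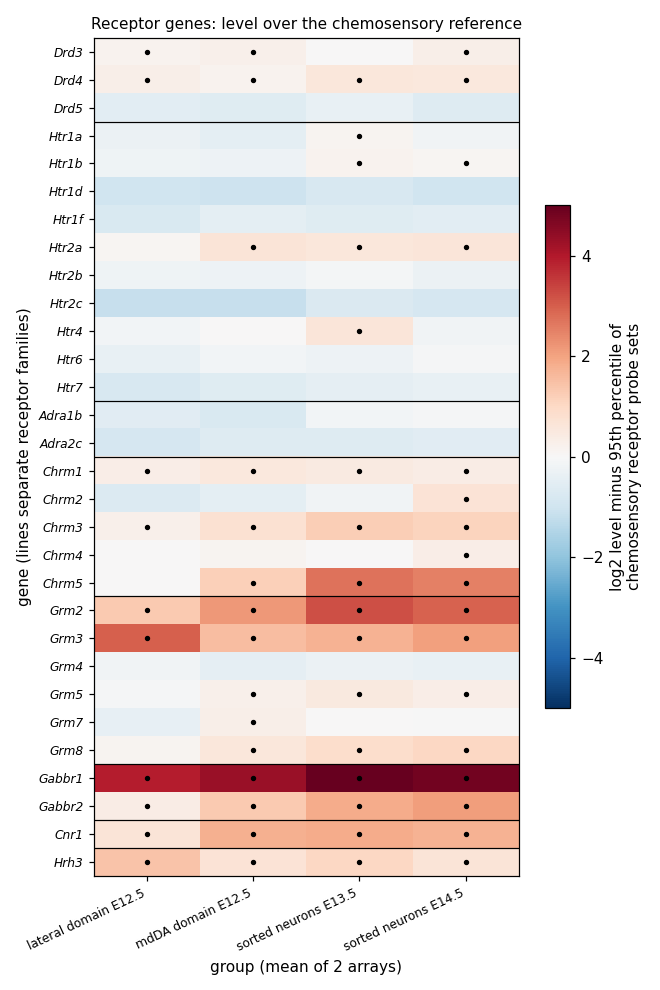
Mean log2 level of each of the 30 receptor genes (rows, grouped by family) in the 4 groups (columns, 2 arrays each) minus the chemosensory reference of the same arrays, with a dot where both arrays lay above the reference. Rows are to be read across groups and not against each other, since probe sets differ in brightness. Dots fill all 4 columns for 9 genes, and among the serotonin and adrenergic rows only *Htr1a*, *Htr1b*, *Htr2a* and *Htr4* have any.

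The number of members above the reference is given by family as a description, since probe sets differ in brightness and no difference between families was tested. All 5 muscarinic genes, both GABA-B subunit genes, *Cnr1* and *Hrh3* did so in at least 1 group, as did 5 of 6 metabotropic glutamate and 2 of 3 dopamine receptor genes. For the serotonin receptor genes the count was 4 of 10 and for the adrenergic receptor genes 0 of 2. The dopamine receptor gene *Drd5* lay between 3.29 and 3.83 on the 8 arrays and was above the reference on none. The Gi-coupled *Drd4* was above it on all 8, at 4.35 to 4.80. Its group means differed by at most 0.08.

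Among the serotonin receptor genes, *Htr1d*, *Htr1f*, *Htr2c* and *Htr7* were above the reference on no array. Their values ran from 3.04 for *Htr1d* to 3.92 for *Htr1f*. *Htr2a*, which encodes a Gq-coupled receptor, measured 4.52 and 4.30 in the lateral domain, 5.04 and 4.95 in the mdDA domain, 4.88 and 4.27 in the E13.5 neurons and 4.78 and 4.54 in the E14.5 neurons. On the deposited scale both mdDA arrays were higher than the 6 others. Relative to the array medians, which were lower on the sorted arrays, the higher E13.5 array lay above both mdDA arrays. *Htr1b* passed the reference in both sorted groups, but its group means were alike (4.09 to 4.15) and the reference was lower on those arrays. *Htr1a* passed in the E13.5 neurons, at 4.15 and 4.10. It measured 4.06 and 3.97 in the lateral domain, where the reference was higher. *Htr4* passed in the E13.5 neurons, at 4.33 and 4.88. It measured 4.40 and 4.32 in the mdDA domain, where only 1 array lay above the higher reference. *Htr2b* and *Htr6* lay between 3.68 and 4.32 and passed on both arrays of no group. In the adrenergic family, *Adra1b* lay between 3.42 and 4.11 and *Adra2c* between 3.20 and 3.87.

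The muscarinic genes showed different patterns. *Chrm1* was above the reference in each group, at 4.38 to 5.25. *Chrm3*, for a Gq-coupled receptor, measured 4.58 and 4.59 in the lateral domain and between 4.99 and 5.43 on the other 6 arrays, without overlap between the lateral domain and the rest. *Chrm4* lay on both sides of the reference within the lateral domain, the mdDA domain and the E13.5 neurons, and above it on both E14.5 arrays. On the mouse genome *Chrm4* overlaps *Mdk* and *Htr2b* overlaps *Psmd1*, whose mean levels were 5.44 to 7.50 and 7.62 to 7.89. Whether probes of a receptor gene read its neighbour was not tested.

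Among the metabotropic glutamate receptor genes, *Grm4* lay between 3.53 and 4.15 and was above the reference on no array. *Grm5*, for a Gq-coupled receptor, and *Grm8*, for a presynaptic Gi-coupled one, passed it in the mdDA domain and in both sorted groups. Their values ran from 4.16 to 4.60 for *Grm5* and from 4.21 to 5.24 for *Grm8*, and 1 of 2 lateral arrays lay above the reference for each. *Grm2*, *Grm3* and *Grm7* are described with the comparisons.

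*Chrm5* encodes the muscarinic receptor found on midbrain dopaminergic neurons and had the widest span of group means, 2.37 on the log2 scale. It measured 4.30 and 4.34 in the lateral domain, 5.80 and 5.26 in the mdDA domain, 6.64 and 6.74 in the E13.5 neurons, and 7.37 and 5.80 in the E14.5 neurons. The lateral arrays sat at the chemosensory reference, the mdDA arrays above them and the sorted arrays above both, although the lower E14.5 array was only just above the higher mdDA array. The 2 arrays of the E14.5 sample were 1.57 apart, the widest gap between duplicate arrays of a receptor gene. *Aven*, which overlaps *Chrm5* on the genome, had means of 4.21, 4.42, 5.05 and 4.85 in the same order of groups.

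**Figure D2:**
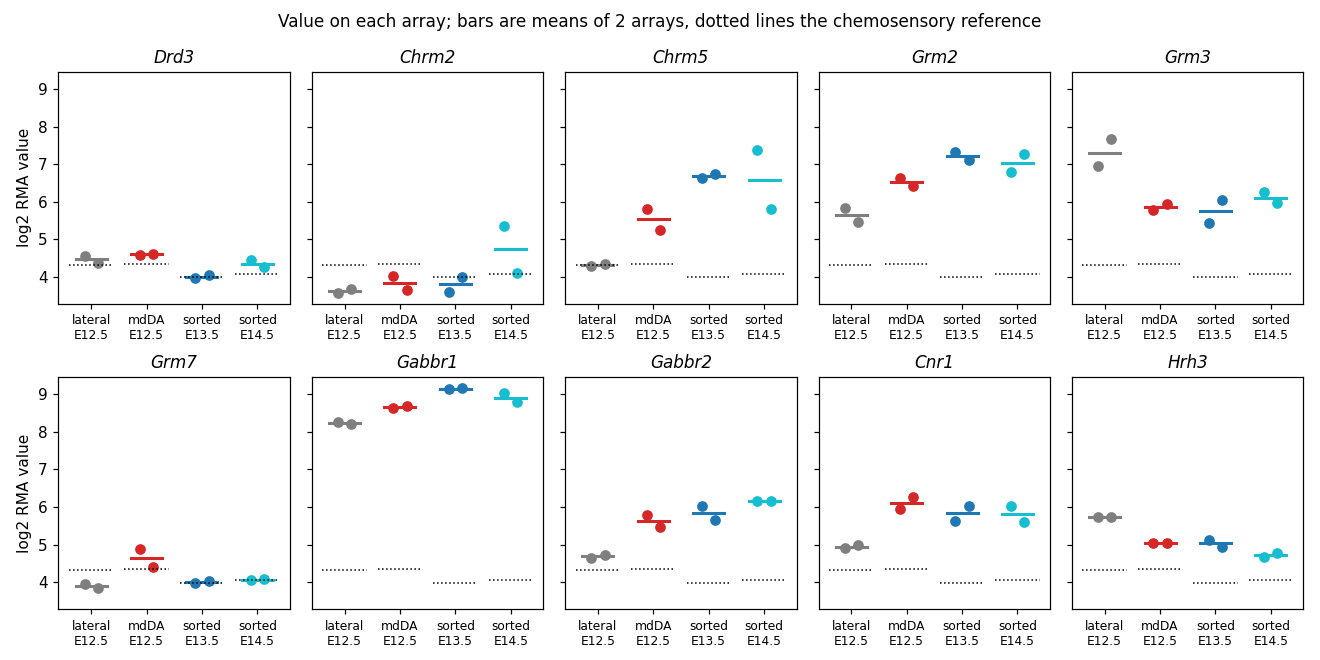
Log2 RMA value on each array (points, 2 per group), group mean (bar) and mean chemosensory reference (dotted line) for the 10 receptor genes given in full. By group mean, *Grm3* and *Hrh3* are highest in the lateral domain, and *Chrm2*, *Chrm5*, *Grm2*, *Grm7*, *Gabbr1*, *Gabbr2* and *Cnr1* are lowest there. The 2 E14.5 arrays of *Chrm5* lie 1.57 apart.

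The first comparison asked which receptor genes distinguished the mdDA domain from the lateral domain. *Cnr1* rose and *Grm3* fell, and they were the 2 receptor genes that passed the paired limma test at an adjusted p below 0.10. Among all 35556 probe sets, 1.52% were called higher and 1.1% lower. The median difference was 0.21 for the 30 receptor genes and -0.01 for all probe sets, and 9 receptor genes were higher and 2 lower at an unadjusted p below 0.05, against 13.7% of all probe sets in both directions together. The arrays of the domains did not overlap for 15 receptor genes that were higher and 5 that were lower in the mdDA domain, against 20.4% and 23.3% of all probe sets.

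*Cnr1* encodes the cannabinoid receptor CB1, a presynaptic receptor that also acts in axon growth. It measured 4.91 and 4.98 in the lateral domain, 5.94 and 6.26 in the mdDA domain, 5.62 and 6.03 in the E13.5 neurons and 6.02 and 5.60 in the E14.5 neurons. The lateral arrays were below the 6 others, which overlapped. The mdDA domain was 2.23-fold higher than the lateral domain (log2 difference 1.15, standard error 0.16, adjusted p = 0.077 from limma).

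*Grm3* encodes a Gi-coupled metabotropic glutamate receptor of neurons and astrocytes. It measured 6.94 and 7.66 in the lateral domain, 5.77 and 5.95 in the mdDA domain, 5.44 and 6.04 in the E13.5 neurons and 6.26 and 5.96 in the E14.5 neurons. Both lateral arrays were above all others, and the mdDA and sorted arrays overlapped. The mdDA domain was 2.71-fold lower (log2 difference -1.44, standard error 0.20, adjusted p = 0.0765 from limma). The closely related *Grm2*, whose receptor couples in the same way, went in the opposite direction on every array. It measured 5.82 and 5.46 in the lateral domain and 6.64 and 6.41 in the mdDA domain, a difference of 0.88 that did not pass (standard error 0.15, adjusted p = 0.112 from limma).

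Neither gene passed when 1 array was left out, in fits where the remaining array of a domain was assumed to vary like the other domain. The difference of *Cnr1* was then between 1.00 and 1.31 (adjusted p from 0.133 to 0.193) and that of *Grm3* between -1.80 and -1.08 (adjusted p from 0.107 to 0.318). These fits also had no replicate block. They called fewer probe sets than the test as specified (931) or all 4 arrays without the block (829 higher and 605 lower). In the other direction, fitting only the 21789 probe sets with 1 gene symbol raised the calls to 11.5% of those tested and to 10 of the 30 receptor genes, 8 higher and 2 lower (*Grm3* and *Hrh3*). Between the domains, markers of dividing progenitors and of the lateral midbrain moved with *Grm3*. The progenitor list had mean levels of 8.11 in the lateral domain, 6.37 in the mdDA domain, 4.99 in the E13.5 neurons and 5.13 in the E14.5 neurons. All 4 progenitor markers were lower in the mdDA domain and lower again in the sorted neurons. From the mdDA domain to the sorted neurons *Grm3* differed by 0.07 (standard error 0.26). Stage, strain, reporter and isolation change in that step too, so this value cannot tell the kinds of cell apart. All 5 lateral midbrain markers were lower in the mdDA domain, with list means of 8.03, 4.29, 5.05 and 4.31 in the same order of groups. The part of either kind of cell in the result was not tested. In pooled tissue, fewer cells of a type and less RNA per cell cannot be told apart.

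The promoter windows of both called genes and of *Chrm5*, the gene with the widest span, are shown because the values of these genes differed most between the domains, in opposite directions. The windows are RefSeq sequences of build GRCm38.p6, each 300 bases around an annotated transcription start, written 5′ to 3′ on the gene's strand, and 28 of the 33 listed genes have at least 1. Capitals mark matches, on either strand, to 6 short motifs of factors of this tissue: CTTTGA for LEF1/TCF, TAATCC for PITX, AAGGTCA for NR4A2, TGTTTAC for FOXA, TAATTA for LMX1 and EN, and AGATAA for GATA. *Cnr1* has 3 windows, and the one with matches is shown.
Cnr1 promoter, chr4:33926130-33926429, plus strand: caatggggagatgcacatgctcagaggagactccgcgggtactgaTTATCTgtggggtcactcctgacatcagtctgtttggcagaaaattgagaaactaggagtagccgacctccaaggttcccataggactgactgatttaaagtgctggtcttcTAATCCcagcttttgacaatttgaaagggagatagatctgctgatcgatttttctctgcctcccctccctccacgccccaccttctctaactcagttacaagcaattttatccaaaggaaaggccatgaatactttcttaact
Grm3 promoter, chr5:9725303-9725602, minus strand: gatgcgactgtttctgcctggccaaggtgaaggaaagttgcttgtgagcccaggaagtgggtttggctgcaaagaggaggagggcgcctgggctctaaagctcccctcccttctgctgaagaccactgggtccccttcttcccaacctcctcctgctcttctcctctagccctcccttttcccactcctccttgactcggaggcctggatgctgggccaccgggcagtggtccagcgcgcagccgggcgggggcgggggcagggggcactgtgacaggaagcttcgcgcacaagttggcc
Chrm5 promoter, chr2:112480768-112481067, minus strand: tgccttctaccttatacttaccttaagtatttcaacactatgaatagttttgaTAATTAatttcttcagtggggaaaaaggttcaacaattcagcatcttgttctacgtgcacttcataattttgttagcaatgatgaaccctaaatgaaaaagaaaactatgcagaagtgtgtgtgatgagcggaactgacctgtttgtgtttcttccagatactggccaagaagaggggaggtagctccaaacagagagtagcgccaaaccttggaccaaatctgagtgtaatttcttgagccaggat

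The *Cnr1* window holds 1 TAATCC and 1 AGATAA (read as TTATCT), the *Chrm5* window holds 1 TAATTA, and the *Grm3* window matches none of the 6. Over the 36 windows of the receptor genes, CTTTGA was present in 2, TAATCC in 3, TAATTA in 2, AGATAA in 3, and AAGGTCA and TGTTTAC in 0. Among all 32851 RefSeq windows the shares were 16% for CTTTGA, 7.06% for TAATCC, 5.29% for TAATTA, 11.2% for AGATAA, 4.72% for AAGGTCA and 3.65% for TGTTTAC. These matches are letters in a sequence and no binding was measured.

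Of the 30 differences between the domains 21 were above 0 and 9 below, and those described next did not pass the test as specified, with the replicate number as block. Some receptor genes passed under other settings, *Chrm5* in 6 of 13 alternatives, *Gabbr2* in 5, *Grm2* and *Hrh3* in 4 each, and *Grm7* in 2 of 12. *Chrm5*, *Gabbr2* and *Hrh3* were among those that passed with no replicate block. *Chrm5* had a 2.31-fold difference, without overlap of arrays (log2 difference 1.21, standard error 0.20, adjusted p = 0.109 from limma). *Gabbr2*, the GABA-B subunit that couples to the G protein, measured 4.65 and 4.72 in the lateral domain and 5.79 and 5.48 on the mdDA arrays (adjusted p = 0.123 from limma). *Gabbr1*, which binds GABA, measured 8.26 and 8.20 against 8.64 and 8.68 (adjusted p = 0.33). Both subunits thus had higher values on the mdDA arrays, by 0.95 for *Gabbr2* and 0.43 for *Gabbr1*.

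*Hrh3*, for a Gi-coupled histamine receptor, ran the other way and measured 5.73 on both lateral arrays and 5.03 on both mdDA arrays. Its difference of -0.70 did not pass (standard error 0.15, adjusted p = 0.156 from limma). *Grm7*, for a presynaptic Gi-coupled glutamate receptor, measured 3.96 and 3.83 in the lateral domain, below the chemosensory reference, and 4.90 and 4.40 in the mdDA domain (adjusted p = 0.183 from limma). *Htr2a*, *Chrm3* and *Grm8* had differences between 0.47 and 0.58 with adjusted p from 0.222 to 0.299 (limma). The remaining receptor genes had differences between -0.23 (*Grm4*) and 0.32 (*Grm5*).

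**Figure D3:**
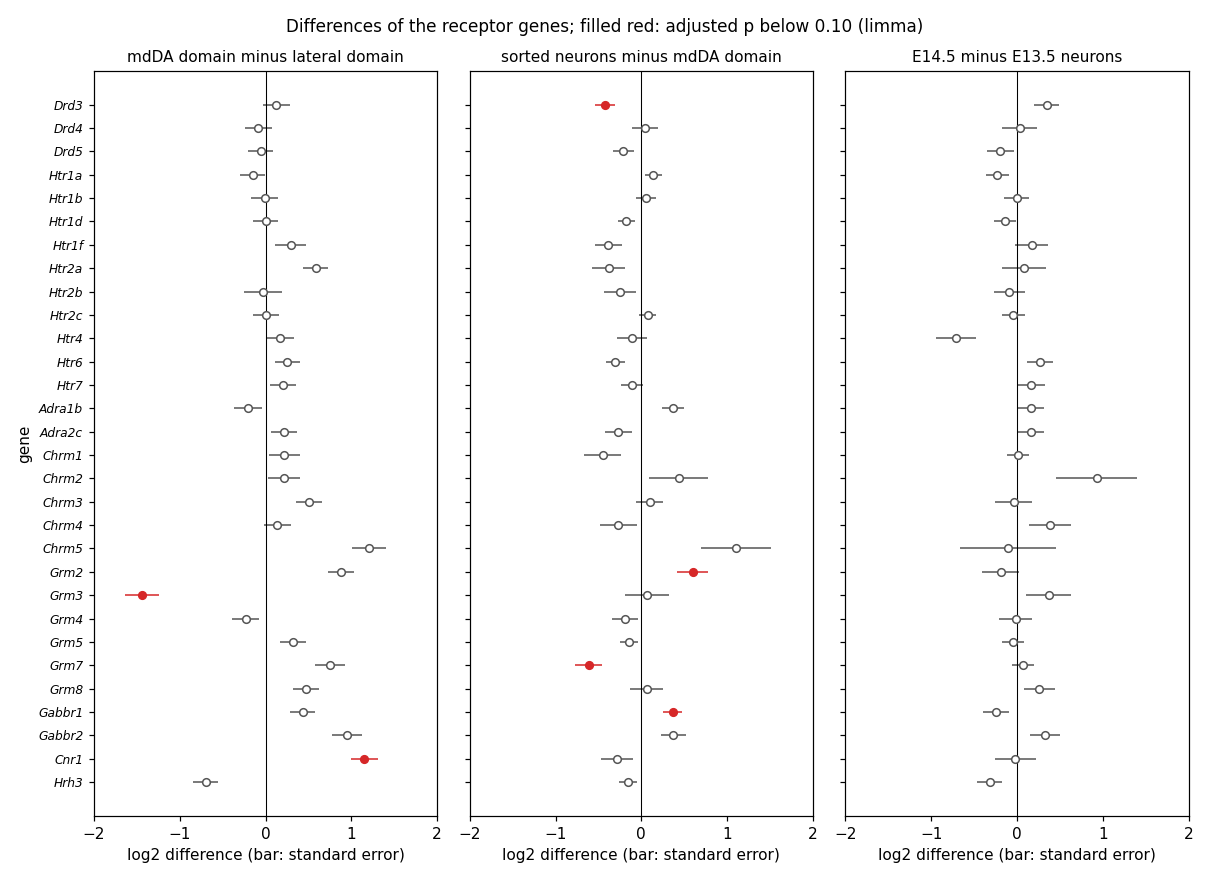
Log2 difference (point) and standard error (bar) of the 30 receptor genes in the 3 comparisons, filled red where the adjusted p from limma was below 0.10. The red points are *Cnr1* and *Grm3* in the first panel and *Drd3*, *Grm2*, *Grm7* and *Gabbr1* in the second, and the third panel has none.

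The second comparison set the mean of both sorted groups against the mdDA domain. *Grm2* and *Gabbr1* were higher and *Drd3* and *Grm7* lower in the sorted neurons, so 2 of 30 receptor genes passed in each direction by limma. Among all probe sets, 8.53% were called higher and 9.84% lower, and the median difference was -0.13 for the receptor genes and -0.08 for all probe sets. Arrays of the sorted neurons and the mdDA domain did not overlap for 13 of the 30 receptor genes, against 37.3% of all probe sets, in both directions together. Stage, strain, reporter and isolation differ between these groups and cannot be told apart from the kind of cell.

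The signs in this comparison depended on the scale. Centring each array on its median moved the difference of all probe sets by 0.20 at the median, and the split of called probe sets from 3032 higher and 3500 lower to 5580 and 1782. The receptor genes called were then 6 higher and 0 lower, and their median difference was 0.07. With quantile normalization repeated over the 8 arrays, 2 were called higher (*Htr1a* and *Adra1b*) and none of the 4 above passed, while 7.3% of all probe sets were called higher and 7.34% lower.

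*Grm2*, whose receptor is a presynaptic brake on glutamate release, measured 6.64 and 6.41 in the mdDA domain, 7.32 and 7.12 in the E13.5 neurons and 6.80 and 7.26 in the E14.5 neurons. All 4 sorted arrays were above both mdDA arrays. The sorted neurons were 1.52-fold higher (log2 difference 0.60, standard error 0.18, adjusted p = 0.0883 from limma). The difference was 0.80 after centring (adjusted p = 0.0346) and 0.47 after repeated quantile normalization (adjusted p = 0.208). Without 1 array the adjusted p was between 0.0579 and 0.316, and it was below 0.10 only without E14.5 replicate 1.

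*Gabbr1* measured 8.64 and 8.68 in the mdDA domain, 9.13 and 9.17 in the E13.5 neurons and 9.02 and 8.79 in the E14.5 neurons, with every sorted array above the mdDA arrays. The difference was 0.37 (standard error 0.11, adjusted p = 0.0848 from limma), 0.56 after centring and 0.15 after repeated quantile normalization. Without 1 array its adjusted p was between 0.0685 and 0.30, and it was below 0.10 only without E14.5 replicate 2. *Gabbr2*, its partner in the receptor, measured 5.79 and 5.48 in the mdDA domain, 6.02 and 5.66 in the E13.5 neurons and 6.17 on both arrays of the E14.5 neurons, and its difference of 0.37 did not pass (adjusted p = 0.162 from limma). After centring it was 0.57 and passed (adjusted p = 0.048).

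*Drd3* and *Grm7* were lower in the sorted neurons but near the chemosensory reference in all groups. *Drd3*, for a D2-type receptor, measured 4.59 and 4.61 in the mdDA domain, 3.96 and 4.05 in the E13.5 neurons and 4.45 and 4.25 in the E14.5 neurons. The difference was -0.42 (standard error 0.12, adjusted p = 0.0659 from limma), and -0.23 after centring (adjusted p = 0.26). *Grm7* measured 4.90 and 4.40 in the mdDA domain and 3.98, 4.02, 4.05 and 4.08 on the sorted arrays, so no arrays overlapped. Its difference was -0.61 (standard error 0.16, adjusted p = 0.054 from limma), and -0.42 after centring (adjusted p = 0.123). Without 1 array the adjusted p of *Drd3* ranged from 0.0712 to 0.228 and was below 0.10 without E14.5 replicate 1 or either lateral array. *Grm7* did not pass without either E13.5 array (adjusted p = 0.113 and 0.102) or without mdDA domain replicate 1, where its difference was -0.37 (adjusted p = 0.23).

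From the mdDA domain to the sorted neurons, several markers of other cells moved the same way as *Drd3* and *Grm7*. In the sorted neurons all 4 blood markers, all 4 measured markers of dividing progenitors, 3 of 5 endothelial, 2 of 3 pericyte and 2 of 3 measured cholinergic motor neuron markers were lower, and 0 of 5 microglial markers passed. Of all probe sets, 9.84% were called lower. After repeated quantile normalization and after centring, only 1 endothelial marker was lower, and the blood, progenitor, pericyte and motor neuron counts were the same. After centring 1 microglial marker was higher. Of the blood markers, *Hba-x* and *Alas2* were still above the chemosensory reference in both sorted groups. Of 5 lateral midbrain markers 2 were higher in the sorted neurons than in the mdDA domain, *Gata3* by 0.88 and *Pax7* by 0.53 (adjusted p = 0.0168 and 0.0429 from limma), and none was lower. The mean level over the motor neuron list was 3.97 in the lateral domain, 4.87 in the mdDA domain, 3.82 in the E13.5 neurons and 3.88 in the E14.5 neurons. Of this list *Isl1*, with means of 4.26, 5.78, 4.05 and 3.77 in this order, was the only gene called between the domains. *Slc18a3* and *Chat* did not pass (adjusted p = 0.107 and 0.619 from limma). In the lateral and mdDA domains the list means were 8.12 and 8.13 for blood, 4.47 and 4.56 for endothelial and 4.79 and 4.95 for pericyte markers. They were 8.11 and 6.37 for progenitor markers. *Grm7* had means of 3.89 and 4.65 in these domains. The part of these cells in the receptor values was not tested.

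*Chrm5* had the largest difference of the receptor genes in this comparison, 1.11, but its standard error was 0.41 and it did not pass (adjusted p = 0.138 from limma). Without E14.5 replicate 2 the difference was 1.50 (adjusted p = 0.0141), and without E14.5 replicate 1 it was 0.72 (adjusted p = 0.0712). Without any other array it did not pass, with an adjusted p of up to 0.437. After centring the difference was 1.31 and passed (adjusted p = 0.0863), and it passed in 5 of 17 alternatives in all. In this comparison leaving out either lateral array was the same fit as leaving out both, so these alternatives are not separate. *Cnr1* and *Hrh3* differed by -0.28 and -0.16 and did not pass, and *Hrh3* turned to 0.04 after centring. *Grm3*, which separated the domains, differed by 0.07 (standard error 0.26).

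The third comparison asked what changed in sorted neurons between E13.5 and E14.5. No receptor gene passed by limma (0 of 30), and the share of all probe sets called was 0% in each direction. At an unadjusted p below 0.05 there was 1 receptor gene, the lower *Htr4* for a Gs-coupled serotonin receptor, against 6.06% of all probe sets. *Htr4* measured 4.33 and 4.88 at E13.5 and 3.81 and 3.97 at E14.5, without overlap, and its difference of -0.71 had an adjusted p of 0.802 from limma. *Chrm2*, for a Gi-coupled muscarinic receptor, measured 3.56 and 3.67 in the lateral domain, 4.02 and 3.66 in the mdDA domain, 3.61 and 4.01 at E13.5 and 5.36 and 4.11 at E14.5. Both E14.5 arrays were above all others, but they were more than 1 log2 unit apart, and the difference between the stages (0.93, standard error 0.47) did not pass (adjusted p = 0.863 from limma). *Chrm5*, *Cnr1* and *Grm2* differed by -0.10, -0.02 and -0.19 between the stages, each with overlapping arrays.

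The receptors act through shared partners, which were described with the same tests from lists of G-protein alpha subunits, effectors and regulators. Of 12 measured alpha subunit genes, *Gnai1* and *Gnal* were higher in the mdDA domain and none was lower, beside 1.52% and 1.1% of all probe sets called in the 2 directions. *Gnai1*, for an alpha subunit that inhibits adenylyl cyclase, had group means of 5.99, 8.14, 8.22 and 8.19 in the lateral domain, the mdDA domain and the E13.5 and E14.5 neurons (difference between the domains 2.15, adjusted p = 0.0675 from limma). *Gnal*, for a stimulatory alpha subunit that couples dopamine receptors to cyclic AMP in the striatum, had means of 4.86, 6.35, 7.49 and 7.84. It was higher by 1.49 in the mdDA domain and by a further 1.32 in the sorted neurons (adjusted p = 0.0923 and 0.0131 from limma). Between the domains *Gnal* did not pass after repeated quantile normalization (1.50, adjusted p = 0.102), and after centring *Gnao1* passed as well. *Gnai3*, *Gna13* and *Gna12* were also higher in the sorted neurons, by 0.44 to 0.53, beside 8.53% of all probe sets. They did not pass after repeated quantile normalization, which left 1 alpha subunit gene higher (*Gnal*) and 1 lower, beside 7.3% and 7.34% of all probe sets.

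Of 26 effector genes, the adenylyl cyclase gene *Adcy1* and the phospholipase C gene *Plcb1* were higher in the mdDA domain, by 1.28 and 1.22, and none was lower. The shares of all probe sets were 1.52% and 1.1%. In the sorted neurons 7 were higher and none lower, beside 8.53% and 9.84% of all probe sets, led by the G-protein gamma subunit genes *Gng2* (0.91) and *Gng4* (0.66), *Gnb4* (0.62) and *Plcb4* (0.62). *Kcnj6*, for a potassium channel opened by Gi/o-coupled receptors, had means of 4.07, 4.72, 4.75 and 4.86 and did not pass in any comparison. Of 28 measured regulator genes, *Rgs7*, *Rgs17* and *Rgs4*, whose products shorten signalling by alpha subunits, were higher in the mdDA domain by 1.66, 1.35 and 1.31. None was lower there, beside the same 1.52% and 1.1% of all probe sets. In the sorted neurons 8 regulator genes were higher and 3 lower, beside 8.53% and 9.84% of all probe sets. *Cnrip1*, whose product binds the CNR1 receptor, was higher by 1.03, while the receptor gene itself differed by -0.28 without passing. With quantile normalization repeated over the arrays, 5 effector genes and 7 regulator genes were higher and 2 regulator genes lower. Of all probe sets, 7.3% were then called higher and 7.34% lower. After centring the counts were 7, 11 and 1, beside 15.7% of all probe sets higher and 5.01% lower. The 3 genes lower on the deposited scale were *Rgs5*, which also marks pericytes, at -1.21, *Homer3*, a scaffold gene of group I metabotropic receptors, at -0.62, and *Kctd16*, an auxiliary GABA-B subunit gene, at -0.48.

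**Figure D4:**
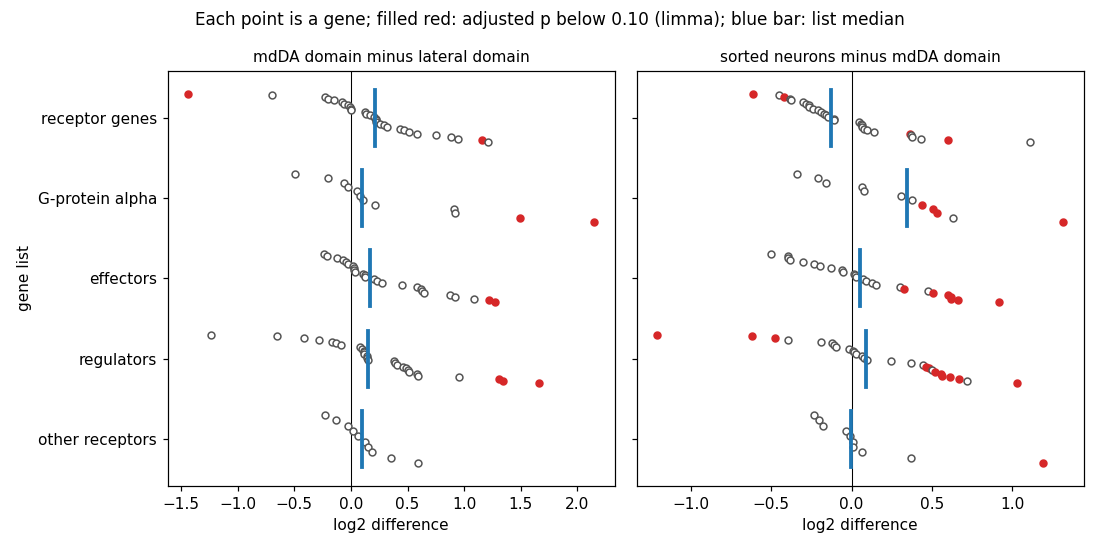
Log2 differences of the receptor genes and of 4 lists of related genes between the mdDA and lateral domains and between sorted neurons and the mdDA domain, 1 point per gene, filled red where the adjusted p from limma was below 0.10, with the list median as a blue bar. Called points lie mostly to the right of 0 in the partner lists, and on both sides in the receptor genes.

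Other receptors of the same families were measured for 10 of 15 listed genes. *Drd2*, for the D2 autoreceptor, was the only one called, with means of 5.64, 6.23, 7.39 and 7.45 in the lateral domain, the mdDA domain and the E13.5 and E14.5 neurons. Its difference between sorted neurons and the mdDA domain was 1.19 (standard error 0.21, adjusted p = 0.0202 from limma), and it passed after centring (1.38) and after repeated quantile normalization (1.07). Between the domains its difference of 0.59 did not pass (adjusted p = 0.413 from limma). *Drd1* stayed between 3.96 and 4.04 in all groups.

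Genes that make or carry the transmitters of these receptors were also compared. Of 24 such genes, 5 were higher and 3 lower in the mdDA domain by limma, beside 1.52% and 1.1% of all probe sets. The higher ones were the dopamine genes *Th*, *Ddc*, *Slc18a2* and *Slc6a3* and the choline transporter gene *Slc5a7*, and the lower ones the GABA genes *Gad1*, *Gad2* and *Slc32a1*. In the sorted neurons 8 were higher, among them *Gad2* and *Slc32a1* by 2.53 each, and 2 were lower (*Slc5a7* and *Slc18a3*). The shares of all probe sets were 8.53% and 9.84%. With repeated quantile normalization the counts were 9 and 3 (7.3% and 7.34% of all probe sets), and after centring 10 and 2 (15.7% and 5.01%). *Dagla*, which makes the endocannabinoid ligand of CNR1, had means of 5.25, 6.07, 6.37 and 6.80 and was higher by 0.52 in the sorted neurons (adjusted p = 0.0596 from limma).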

How the data were processed

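RNA was amplified (Ovation PicoSL WTA System V2) and biotin-labelled. The deposited log2 values, 1 per probe set and array, had been summarized by the authors by RMA (Affymetrix Expression Console 1.2, per the submitters' processing notes) and were not changed further. No genome build of the arrays is given in the sources used here. Of 35556 probe sets, 21789 had 1 gene symbol, 1621 several and 12146 none. Only the first were named, and of several for a gene the brightest on average was taken.

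The domains were compared with a paired limma 3.58.1 test (R 4.3.3) on 4 arrays with the replicate number as block, since the study's methods name a paired test. Sorted neurons (mean of both stages) were set against the mdDA domain in a fit of all 8 arrays, and the stages in a fit of the 4 sorted arrays, both without a block. P-values were adjusted by Benjamini-Hochberg over all probe sets, with calls below 0.10. The scripts were tested on simulated data. Values of every array are given for the 10 receptor genes called in any comparison, or whose group means spanned at least 1 on the log2 scale and that passed the chemosensory reference. Of the other lists, at most 4 called members are named per comparison, and any member of lists of 8 or fewer. Named outside this rule, with values already seen, were *Gnao1*, *Kcnj6*, *Kctd16*, *Drd1*, *Gad1*, *Slc32a1*, *Slc5a7*, *Dagla* and the genes that overlap receptor genes. The members and lists were chosen with earlier results of these data known. Alternatives were another block, other arrays in the fit, 2 rescalings, a filter on dim probe sets, trend and robust priors, a threshold of 0.05, other sets in the adjustment and leaving out each array. The number of arrays limits the precision. Figures used Python 3.11.15, matplotlib 3.10.9 and numpy 2.4.6.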

Additional observations from a re-analysis of the deposited data

How the results depend on the processing

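Between the domains, the 2 calls (*Cnr1* and *Grm3*, with 2.62% of all probe sets called) became 5 with no replicate block (4.03%) and 4 with all 8 arrays in the fit (3.7%). They became 5 with dim probe sets left out (6.62% of those tested) and 4 with trend and robust priors (4.63%). There were 10 calls, 8 higher and 2 lower, when only probe sets with 1 gene symbol (11.5% of those tested) or 1 row a gene (11%) were adjusted. At an adjusted p below 0.05 there were 0 (0.638%). Leaving out each array gave 0 calls in every case, when 15 to 170 of 35556 probe sets were called. The fits without 1 array also had no replicate block. *Cnr1* and *Grm3* each passed in 8 of 13 alternatives, and the direction of all 10 genes given in full was the same in every alternative of this comparison. The replicate numbers did not visibly pair the arrays (correlation of deviations -0.0147). For the sorted neurons against the mdDA domain, 4 receptor genes and 18.4% of all probe sets were called. The 4 calls became 2 with the replicate block (*Drd3* and *Grm7*, with 15.8% of all probe sets) and 2 with 6 arrays in the fit (14.2%). They became 2 with repeated quantile normalization (14.6%) and 0 at an adjusted p below 0.05 (11.1%). *Hrh3* turned to 0.0384 after centring, and *Grm3* ranged from -0.0845 to 0.217 without each array, below 0 without E13.5 replicate 2, E14.5 replicate 1 or mdDA domain replicate 1. Between the stages the count was 0 under every alternative, the replicate block included. Without each array in turn, the difference between the stages ranged from -0.228 to 0.191 for *Cnr1* (above 0 without E13.5 replicate 2 or E14.5 replicate 2), from -0.418 to 0.037 for *Grm2* (above 0 without E14.5 replicate 1) and from -0.884 to 0.682 for *Chrm5* (above 0 without E14.5 replicate 2). The 20 receptor genes above the chemosensory reference became 9 at its 99th percentile, 13 above the array median, and 20 to 22 without each array. With 1 gene symbol the prior degrees of freedom of the variances were 12 rather than 3.27 and 11.5% rather than 2.62% of the probe sets were called, and the cause of the changes was not tested. Without detection calls, the size of a difference is uncertain for genes near the chemosensory reference.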
